A study of Mus musculus with 2 samples.

Results

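Nuclear receptors are transcription factors that most often act by binding a small lipid-soluble ligand, such as a steroid, thyroid hormone, a retinoid, an oxysterol or a foreign chemical. The nuclear receptor genes other than those of the PPARs and RXRs were followed here in regenerating mouse livers. They are 34 genes of 33224 gene symbols, listed by name, and each had 1 row in the table. RXRs are the dimer partners of many of these receptors, and the PPARs compete with them for that partner. In liver the family controls lipid and bile acid synthesis, drug metabolism, gluconeogenesis and the daily clock.

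Hepatic RNA was sequenced from male C57BL/6 mice 48 hr after partial hepatectomy (PH), an operation that removes part of the liver and starts hepatocyte proliferation in what is left. There was 1 library of WT liver and 1 of PPARβ-null (KO) liver, and the comparison asks what PPARβ deficiency changes during regeneration. Labels of both samples give an age of 4 months, the series' design text 3 months and the growth protocol a wider range, and the time comes from the study's text. Whether a library holds 1 mouse or a pool, and how the null allele was made, is not given in the sources used here. With 1 library per genotype no value has an error between mice and no test across samples exists. Every difference below is between the 2 libraries labelled WT and KO, whose rows also name different lanes, so lane and genotype cannot be told apart.

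Ppard, the gene of PPARβ, was listed at 2.67 FPKM (WT) and 2.42 FPKM (KO), where FPKM counts fragments relative to exon length in kilobases and to sequencing depth. The part of the gene that the null allele lacks is not given in the sources used here, so the level of the whole gene does not check the label. Liver identity was clear from 6 hepatocyte markers, whose FPKM summed to 9088 in WT and 8477 in KO. Of these only Cps1, of the urea cycle, was more than 1.5-fold lower in KO, with 1597 and 743.

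Of the 34 receptor genes, 23 had a mean FPKM over both libraries of at least 0.1 and were compared. On the log2(FPKM + 0.1) scale, which understates the change of low genes, 5 of the 23 were more than 1.5-fold lower in KO (21.7%) and 2 were more than 1.5-fold higher (8.7%). Over all 15727 gene symbols that passed the same filter, 22.9% were lower and 4.93% were higher. The share of lower receptors was therefore near the background. The higher share rests on 2 genes. The genes that were lower are Nr3c2, Esr1, Nr2c2, Rarb and Nr2f1, and those that were higher are Nr4a1 and Nr1i3. The other 16 receptors stayed within 1.5-fold. The median log2 ratio of KO to WT was -0.25 over the 23 receptors, with a range of -1.08 to 2.90, and -0.25 over all symbols. When the libraries were scaled to equal upper quartiles, 14.3% of all symbols were lower and 9.23% higher, and when they were centred on expressed genes 14.2% were lower and 8.74% higher. Under both of these scalings 2 receptors were lower (Esr1 and Nr3c2) and 3 were higher (Nr1i2 added).

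Above a mean FPKM of 1, 4 of 20 receptors (20%) were more than 1.5-fold lower in KO, against 19.1% of the 11723 symbols at that level. By any amount, 10 of these 20 receptors were lower and 10 higher, with a median log2 ratio of 0.01. Of the symbols 8866 were lower and 2857 higher, with a median of -0.24, and the difference was not tested.

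**Figure D1:**
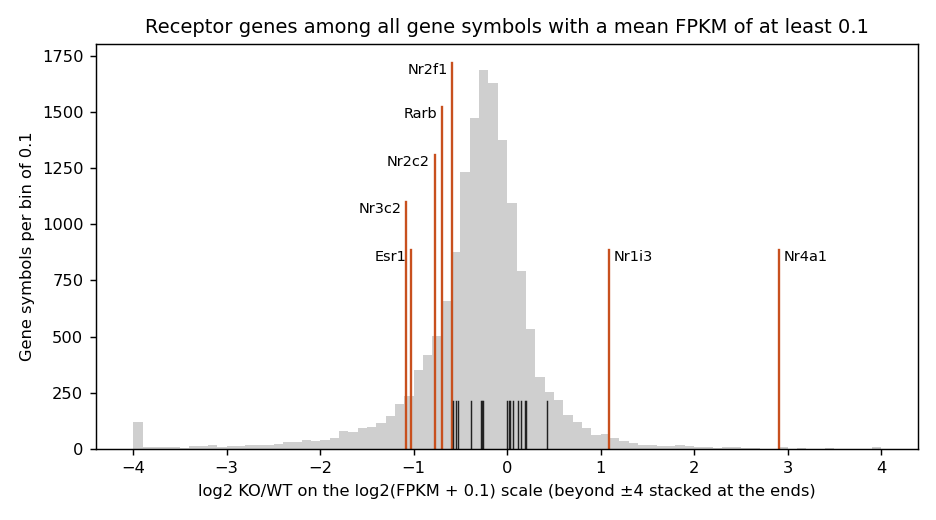
Histogram of the log2 KO/WT ratio, on the log2(FPKM + 0.1) scale, of the 15727 gene symbols with a mean FPKM of at least 0.1 (gray, symbols per bin of 0.1), with a vertical line for each of the 23 receptor genes. The heights of the lines carry no value, and the 7 tall lines are the named receptors past 1.5-fold, among which Nr4a1 at 2.90 stands in the thin upper tail.

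Nr4a1, Nr4a2 and Nr4a3 are orphan receptors of the immediate early class, which are transcribed within minutes of a stimulus and act without a known classical ligand. Their promoters are shown first because 1 of the 3 genes stood apart in KO, a choice made after the levels were seen. Each sequence is the 250 bases before the annotated start in RefSeq on GRCm38.p6, a later build than that of the expression files, written 5′ to 3′ on the strand of the gene. Capitals mark TGACG, the core of the cAMP response element, on either strand (CGTCA when read on the opposite strand).

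Nr4a1, chr15:101266596-101266845, plus strand: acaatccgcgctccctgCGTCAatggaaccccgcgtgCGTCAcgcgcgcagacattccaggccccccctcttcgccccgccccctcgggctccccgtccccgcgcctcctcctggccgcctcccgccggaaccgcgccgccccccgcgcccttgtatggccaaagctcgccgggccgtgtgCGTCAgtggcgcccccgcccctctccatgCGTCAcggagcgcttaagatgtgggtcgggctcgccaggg

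Nr4a2, chr2:57124004-57124253, minus strand: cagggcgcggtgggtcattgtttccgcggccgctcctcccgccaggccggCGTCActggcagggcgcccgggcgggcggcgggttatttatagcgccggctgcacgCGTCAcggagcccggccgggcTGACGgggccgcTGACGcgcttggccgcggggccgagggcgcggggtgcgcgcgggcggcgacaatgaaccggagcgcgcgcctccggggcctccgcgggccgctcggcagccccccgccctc

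Nr4a3, chr4:48045055-48045304, plus strand: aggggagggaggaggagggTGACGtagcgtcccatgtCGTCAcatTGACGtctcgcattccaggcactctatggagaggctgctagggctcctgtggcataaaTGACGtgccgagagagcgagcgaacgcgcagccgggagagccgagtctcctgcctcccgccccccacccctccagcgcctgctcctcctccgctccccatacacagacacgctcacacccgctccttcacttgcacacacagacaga

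Each of the 3 promoters held 4 matches, none of which overlapped another. Of all 32851 promoter entries in the table, in which a gene with several starts has several entries, 17.8% held at least 1 match in the same window and 0.137% held 4 or more. Promoter entries were found for 30 of the 34 receptors, 44 entries in all, and 11 of those 44 (25%) held at least 1 match. Of the other motifs searched on both strands, AGGTCA, the half-site that many nuclear receptors bind, was present in 4 of the 44 entries (9.09%) and in 14% of all entries, and TATAAA in 5 of the 44 (11.4%) and in 12.4% of all. The motifs were chosen after the levels were seen. A match describes these letters and is not a measured binding site.

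The levels of the NR4A genes differed widely. Nr4a1, known as Nur77, was at 0.678 FPKM in WT and at 5.72 FPKM in the KO library. It was the lowest of the 20 receptors with a mean of 1 or more in WT, and 9 receptors were above it in KO. The ratio of KO to WT was 8.45, with a 95% interval of 6.78 to 10.7 that covers counting error alone. This rested on an estimated 86.3 fragments in WT and 796 in KO. On the log2 scale the gene ranked 20 from the top of the 15727 symbols, so that 0.127% of symbols were at or above it. Nr4a1 lies at chr15:101097277-101105223 on the plus strand of mm9, has 1 annotated transcript of 2474 bases, and shares no exon with another gene.

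Nr4a2, or Nurr1, was low, with 0.155 in WT and 0.071 in KO. Nr4a3, or Nor1, was under 0.1 in both libraries, with 0.0553 in WT and 0.0792 in KO. The WT/KO ratio of Nr4a2 was 2.18 (95% interval 1.11 to 4.49) on about 28.5 and 14.2 fragments, and its log2 ratio of -0.58 fell just inside the 1.5-fold line. For Nr4a3 the interval of the KO/WT ratio, 0.734 to 2.87, included 1. The large difference in KO was thus seen in Nr4a1 and in neither of its paralogs, and the difference between paralogs was not tested.

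A list that joined NR4A targets with immediate early genes held 11 genes, of which 10 passed the filter. Of these 5 were higher in KO (50%) and 1 lower (10%), against 4.93% and 22.9% of all symbols. Their median log2 ratio was 0.43. Counts and median pool both kinds of gene and do not describe NR4A targets alone. Fos, a subunit of the AP-1 factor, had 1.37 in WT and 8.1 in KO. G6pc, the last enzyme of gluconeogenesis, had 55.3 and 109. Egr1 at 30.2 and 107, Junb at 27.7 and 53.8, and Ier2 at 18.5 and 33.1 were the other higher genes, named after their values were seen. Dusp1, a phosphatase that ends MAP kinase signals, was lower, with 10.6 in WT and 5.24 in KO. The gluconeogenic Pck1 was at 852 and 818 and Fbp1 at 626 and 635. Jun at 11.6 and 10.6 and Atf3 at 2.33 and 2.17 were also within 1.5-fold. Fosb, at 0.0906 in WT and 0.0221 in KO, was below the filter. Jun, Atf3 and Fosb were named after their values were seen.

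**Figure D2:**
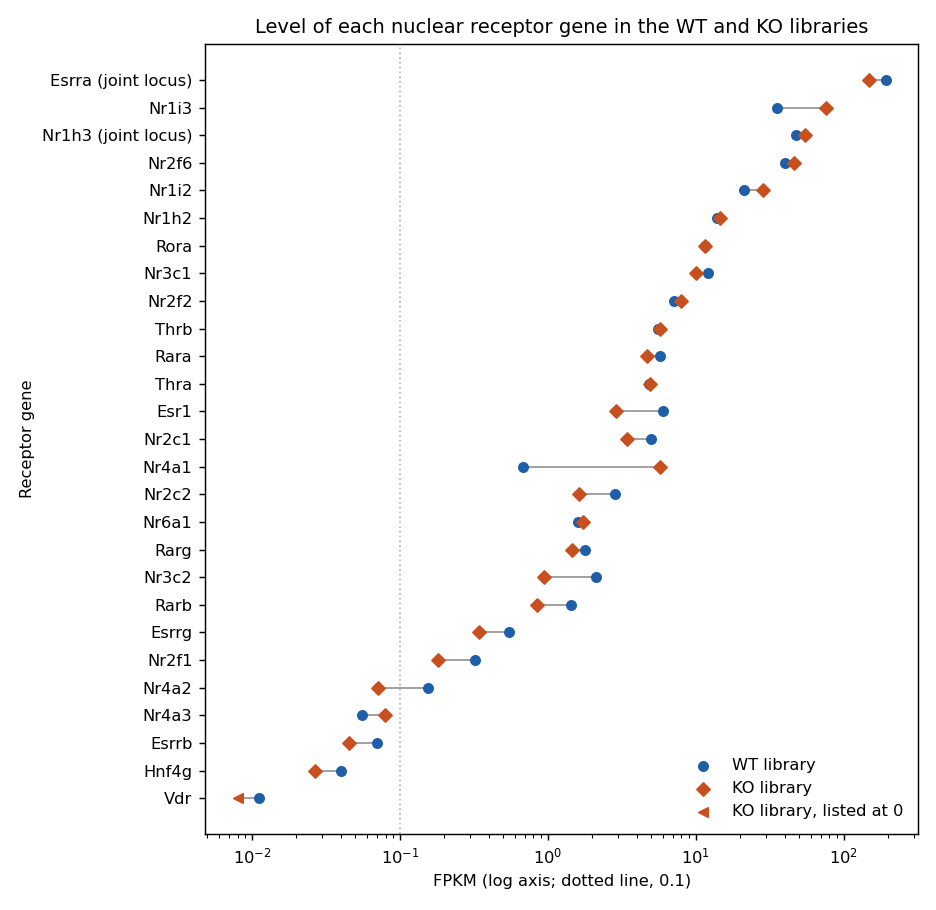
FPKM of the 27 receptor genes listed above 0 in at least 1 library, on a log axis, with the WT library as circles and the KO library as diamonds joined by a line (1 library each, so no error bars). Nr4a1 spans the longest line, from 0.678 to 5.72, Vdr is listed at 0 in KO and drawn at the left edge, and the 7 genes at 0 in both libraries are left out.

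Among the xenobiotic receptors, Nr1i3, the constitutive androstane receptor CAR, was at 35.6 FPKM in WT and at 75.6 FPKM in KO. CAR and the pregnane X receptor PXR (Nr1i2) sense drugs and bile acids and switch on cytochrome P450 genes. The KO/WT ratio of Nr1i3 was 2.12, with a counting interval of 2.06 to 2.19, and 1.76% of all symbols had a ratio at or above it. Of the 34 receptors it was the highest of a single-gene locus in KO, and it was below Nr2f6 in WT. Nr1i3 lies at chr1:173144101-173150832 on the plus strand of mm9. Its exons share 2268 bases with those of Tomm40l on the opposite strand, and the library kit does not mark strand, so reads of the 2 genes cannot be told apart there. Tomm40l was listed at 9.29 in WT and 9.65 in KO.

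Nr1i2 was also higher in KO, at 21.2 in WT against 28.5 in KO, but within 1.5-fold (KO/WT 1.34, counting interval 1.28 to 1.41). Its listed locus spans 206 kb, against 46.5 kb for the annotated gene, and reaches into Gsk3b. The value of Nr1i2 may therefore not be of that gene alone. The ratio of Nr1i3 to Nr1i2 was 1.68 in WT and 2.66 in KO. Vdr, the vitamin D receptor, was at 0.0112 in WT, which is about 2.53 fragments, and was listed at 0 in KO.

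Of 27 PXR and CAR targets 26 passed the filter, 12 were lower in KO (46.2%) and 3 higher (11.5%), against 22.9% and 4.93% of all symbols, and the median was -0.53. Cyp3a11, a main drug-metabolizing P450, had 3926 in WT and 2202 in KO, while Cyp2c29 had 1276 and 1715. The glutathione transferase Gstm1 had 2034 in WT and 742 in KO, but its locus is joined with another gene, so the value cannot be assigned to Gstm1 alone. Among genes with a mean of at least 1, the largest fold downward was that of Gsta1, at 123 and 0.485, and the largest upward that of Cyp2c37, at 88.7 and 147. These P450 and transferase genes belong to families of near-identical copies, among which reads can be divided wrongly, so single members are uncertain.

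Of the steroid receptors the estrogen receptor α gene Esr1 and the mineralocorticoid receptor gene Nr3c2 were more than 2-fold lower in KO as deposited. With equal upper quartiles their log2 ratios were -0.760 and -0.826, and centred on expressed genes -0.791 and -0.841, all short of 2-fold. Esr1 had 5.96 in WT and 2.88 in KO. The WT/KO ratio was 2.07 (counting interval 1.92 to 2.24), and 9.51% of symbols had a log2 ratio at or below that of Esr1. Nr3c2 had 2.11 in WT and 0.949 in KO. Its level was 2.23 times higher in WT (1.94 to 2.55), with 8.77% of symbols at or below it. On mm9 Esr1 lies at chr10:5340927-5734948 on the minus strand and Nr3c2 at chr8:79423341-79768911 on the plus strand. The listed locus of Nr3c2 is wider, at 639.9 kb against 346 kb for the annotated gene. Nr3c2 shares 247 exon bases with Gm10649 on the opposite strand, which was at 0.0589 and 0.0772.

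Nr3c1, the glucocorticoid receptor, is the more abundant of the pair of corticosteroid receptors and differed little, with 12 in WT and 10 in KO. Its WT/KO ratio was 1.19 (1.14 to 1.25), its log2 ratio of -0.25 lay near the median of all symbols, and it turned to 0.02 with equal upper quartiles. The ratio of Nr3c1 to Nr3c2 was therefore 5.66 in WT and 10.6 in KO. Esr2 (estrogen receptor β) and Pgr (progesterone receptor) were listed at 0 in both libraries.

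Genes of glucocorticoid handling and glucocorticoid receptor targets differed in both directions. All 19 passed the filter, with a median of -0.54. In KO 8 were lower (42.1%) and 4 higher (21.1%), against 22.9% and 4.93% of all symbols. Tat, which degrades tyrosine, had 1115 in WT and 595 in KO, and the clock gene Per1 had 10.6 and 4.31. Igfbp1, a binding protein of insulin-like growth factors, had 108 and 360.4, and the metallothioneins Mt1 and Mt2 had 984 and 1643, and 912 and 1545. Serpina6, which carries corticosteroids in blood, had 40.5 and 19, and was picked for mention with its values in view.

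Among the orphan receptors of the testicular and COUP classes, both testicular receptors were lower in KO. Nr2c2 (TR4) had 2.84 in WT and 1.62 in KO, with WT/KO at 1.76 (1.6 to 1.93), while its partner Nr2c1 (TR2) had 5.01 and 3.45, a ratio of 1.45 (1.32 to 1.6) that did not pass 1.5-fold. The difference between the 2 genes was not tested, and Nr2c2 was within 1.5-fold with equal upper quartiles or centring. Over all transcripts, exons of Nr2c2 share 3533 bases with Mrps25 on the opposite strand, which had 11 in WT and 8.54 in KO. The longest Nr2c2 transcript has 7647 bases. The kit does not mark strand, so the value of Nr2c2 may not be of that gene alone. Nr2f1 (COUP-TFI) was low, with 0.323 in WT and 0.182 in KO on about 53.3 and 32.7 fragments, and its ratio of 1.78 had a wide interval of 1.11 to 2.8. Its log2 ratio of -0.59 lay just past the 1.5-fold line. The listed locus of Nr2f1 spans 47.6 kb, against 10.8 kb for the annotated gene. Exons of Nr2f1 share 103 bases with A830082K12Rik and 20 with Gm8327 on the opposite strand. Both of these were listed at 0.238 in WT and 0.0916 in KO, so the value may not be of Nr2f1 alone. Nr2f2 (COUP-TFII), the main COUP factor of this pair, was at 7.15 in WT and 7.94 in KO (KO/WT 1.11, 1.04 to 1.19). Nr2f2 thus exceeded Nr2f1 22.1 times in WT and 43.7 times in KO.

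Nr2f6 (EAR2) had the highest listed value of this class, at 40.3 in WT and 46.3 in KO. Over all transcripts, exons of Nr2f6 share 1622 bases with Ocel1 on the opposite strand, which was at 3.51 in WT and 7.79 in KO. The longest Nr2f6 transcript has 2218 bases. The value of Nr2f6 may likewise not be of that gene alone. Hnf4g, a relative of the hepatocyte factor HNF4α, was at 0.04 and 0.0265, on fewer than 10 estimated fragments in each library. The neural Nr2e1 (tailless) and the photoreceptor gene Nr2e3 were listed at 0.

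The retinoic acid receptors were each lower in KO by some amount, and only Rarb passed 1.5-fold. Rarb had 1.44 in WT and 0.848 in KO, with WT/KO at 1.69 (1.36 to 2.09). Rara had 5.7 and 4.69 (WT/KO 1.21, 1.11 to 1.33), and Rarg had 1.78 and 1.46 (1.22, 1.02 to 1.46). The 3 log2 ratios were -0.70, -0.27 and -0.27, so Rara and Rarg lay near the median of all symbols. In the list of retinoid handling and targets of these receptors, 13 of 17 genes passed the filter, with a median of -0.27. Of these 6 were lower in KO (46.2%) and 1 was higher (7.69%), against 22.9% and 4.93% of all symbols. The retinol carrier Rbp4 had 1558 in WT and 2047 in KO, and the retinal dehydrogenase Aldh1a1 had 603 and 551. Rdh11, a retinal reductase, had 35.7 and 6.84. The retinoic acid hydroxylase Cyp26a1, chosen after its values were seen, was also lower in KO, at 19.7 and 4.85, whereas Cyp26b1, a hydroxylase of the same function and the higher gene of the list, was at 0.259 and 1.67.

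Markers of cells other than hepatocytes were set beside the 22.9% of all symbols that were more than 1.5-fold lower in KO. Of 8 Kupffer cell and macrophage markers 6 (75%) were lower, and the 8 summed to 73.7 in WT and 43.7 in KO. Endothelial markers were lower in 6 of 9 (66.7%, sum 67.5 and 49.7). Stellate cell markers were lower in 3 of 9 (33.3%, 101 and 74.1) and cholangiocyte markers in 2 of 6 (33.3%, 33.7 and 29.4). Lymphocyte markers were lower in 0 of 4 (0.54 and 0.363). Their means, 0.107 to 0.117, lay just above the filter, where the log2(FPKM + 0.1) scale understates change. As deposited, WT/KO was 2.12 for Cd3g, 1.8 for Cd79a, 1.94 for Cd79b and 0.685 for Trac. Neutrophil markers were lower in 3 of 4 (75%, 14.8 and 7.87), but their defining genes Ly6g, Mpo and Camp were listed at 0. The lists are short. The part of these cells in the receptor levels was not tested, and fewer cells of a type and less RNA per cell cannot be told apart in bulk liver.

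Receptors of thyroid hormone and oxysterols and the ROR class were nearly level between the libraries. Thra had 4.81 in WT and 4.89 in KO, and Thrb, the main thyroid hormone receptor of hepatocytes, had 5.58 and 5.7. Both intervals of the KO/WT ratio included 1 (0.909 to 1.14 for Thra and 0.957 to 1.09 for Thrb), and the ratio of Thrb to Thra was 1.16 in WT and 1.17 in KO. Thra shares 263 exon bases with the clock repressor Nr1d1 on the opposite strand, which was at 21.4 and 30.9. Rora, an activator of clock genes, had 11.5 in both libraries (0.964 to 1.03), and Rorb was listed at 0. Nr1h2 (LXRβ) had 13.9 in WT and 14.6 in KO (0.975 to 1.13). Nr1h3 (LXRα), the sensor of oxysterols that drives fat synthesis in hepatocytes, had 47.7 and 54.6, but this value belongs to a locus joined with Madd and Gm13783 and cannot be assigned to Nr1h3 alone.

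The targets of these receptors were given as lists, whose counts stand beside the background of 22.9% lower and 4.93% higher. Of 13 LXR targets, which all passed the filter, 9 were lower in KO (69.2%) and 0 higher at 1.5-fold, and the median was -0.81. Srebf1, the regulator of fatty acid synthesis, had 46.6 in WT and 9.21 in KO. The synthesis enzymes Fasn and Scd1 had 98.6 and 21.2, and 628 and 210.2. Abcg8, part of the sterol exporter, had 13.6 and 15.7. The other LXR targets within 1.5-fold, named after their values were seen, were Abca1, Abcg5 and Mylip. Abca1 had 24.5 in WT and 22.9 in KO, Abcg5 had 20.2 and 21, and Mylip had 1.31 and 1.16. Of 9 thyroid hormone genes that passed, 3 were lower (33.3%) and 2 higher (22.2%), with a median of -0.06. Thrsp, a lipogenic factor, had 156 in WT and 3.95 in KO, and Me1, the malic enzyme, had 80.3 and 42.1, while the deiodinase Dio1 had 16.5 and 28.9 and the carrier Ttr 2503 and 2406. The ROR targets had 1 gene lower (11.1%) and 4 higher (44.4%) of 9, with a median of 0.36. Elovl3, a fatty acid elongase, had 41.5 in WT and 217 in KO, Insig2 had 116 and 368, and the bile acid enzyme Akr1d1 had 106 and 19.4.

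Of the estrogen-related receptors, which govern genes of mitochondrial energy production, Esrra had the highest listed value of all 34 receptors, with 193 in WT and 147 in KO. Its locus is joined with Prdx5, a peroxiredoxin, so neither the level nor the rank can be assigned to Esrra. Esrrg had 0.544 in WT and 0.342 in KO, with WT/KO at 1.59 (1.23 to 2.06), and its log2 ratio of -0.54 on the scale with the pseudocount was inside 1.5-fold. Esrrb, at 0.0706 and 0.0451, was below the filter. Of 12 ERR targets 4 were lower (33.3%) and 1 higher (8.33%), against 22.9% and 4.93% of all symbols. Their median was -0.46. Atp5b had 820.4 in WT and 552 in KO, Mdh1 429 and 242, and Sdhb 135 and 75.6, whereas Pdk4, the kinase that shuts off pyruvate oxidation, had 1.99 and 5.14.

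Nr6a1 (GCNF), an embryonic receptor, was at 1.6 in WT and 1.74 in KO, with an interval of 0.965 to 1.22 that included 1. Nr5a1 (SF-1) and Nr0b1 (DAX1), which act in steroid-producing organs, were listed at 0. The intervals of these ratios cover counting error only and not the variation between mice, and they are set against a ratio of 1 rather than the lower median of all symbols.

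**Figure D3:**
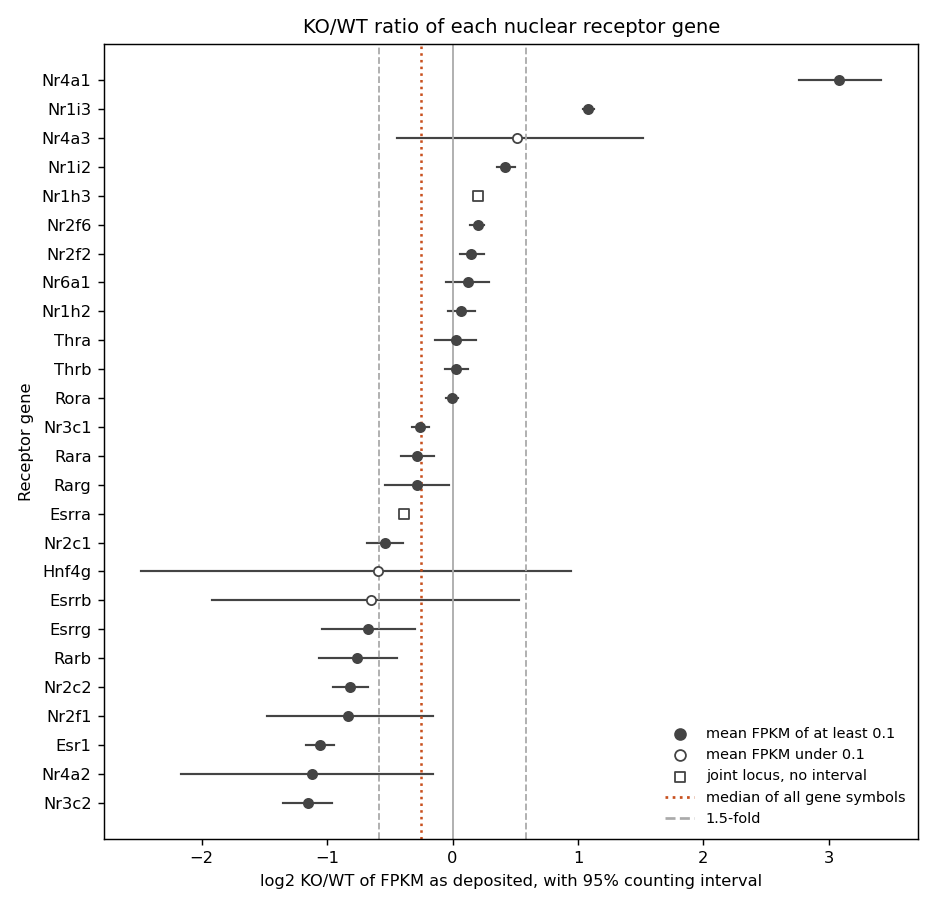
Log2 of the KO/WT ratio of FPKM as deposited (x axis) for the 26 receptor genes above 0 in both libraries, with bars for the 95% counting interval of 24 and squares without a bar for the joint loci of Nr1h3 and Esrra. Nr4a1 and Nr1i3 lie right of the upper 1.5-fold line with their whole intervals. The intervals of Esr1, Nr3c2 and Nr2c2 lie left of the lower one. Of these genes Nr1i3, Nr3c2 and Nr2c2 share exon bases with a gene on the opposite strand.

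Few of the cofactors through which receptors act passed 1.5-fold, against 22.9% of all symbols lower and 4.93% higher. Of 21 coactivators that passed the filter, 2 were lower in KO (9.52%) and 0 higher, with a median of -0.19. The methyltransferase Prmt1 had 14.9 in WT and 8.82 in KO, while Ncoa4 had 43.4 and 47.4. Of 14 corepressors 1 was lower (7.14%) and 0 higher, with a median of -0.32. Ncor1, the main corepressor of unliganded receptors, had 24.6 and 24.7. The 6 PPAR and RXR genes were all within 1.5-fold, with a median of -0.01, and the most abundant, the shared partner Rxra, had 91.2 in WT and 114 in KO. Of 7 other nuclear receptors, Nr1d2, a clock repressor, was lower, at 24.9 and 11.5, and Nr0b2, the repressor of bile acid synthesis known as SHP, was higher, at 15.4 and 34.2. The hepatocyte factor Hnf4a was at 172 and 193.

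**Figure D4:**
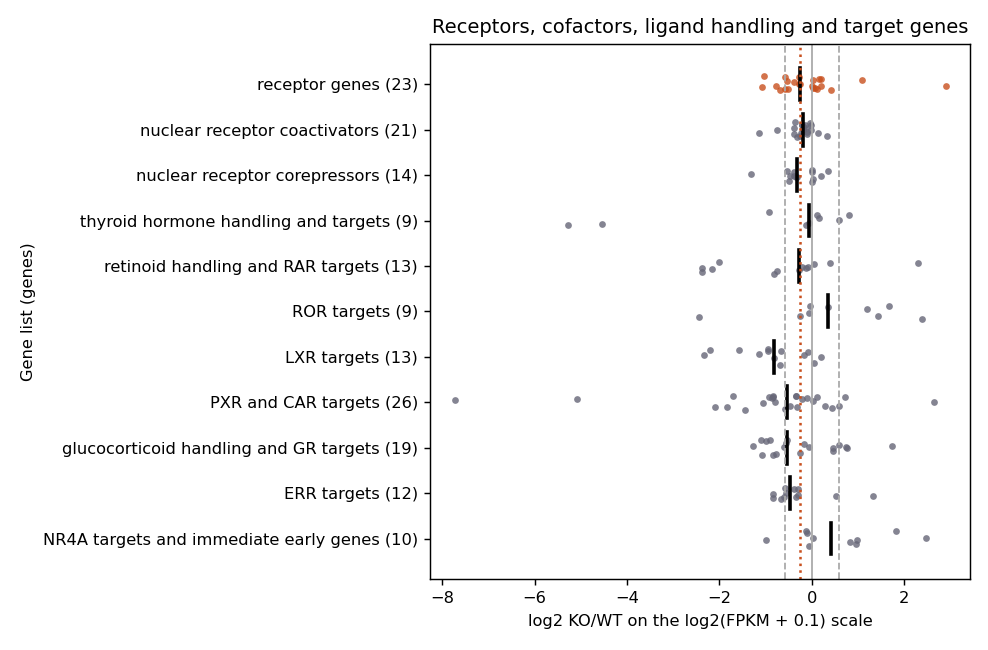
Log2 KO/WT on the log2(FPKM + 0.1) scale of each gene (points) of the receptors and of 10 lists, with the number of genes that passed the filter in parentheses and the median as a black bar. Dashed lines mark 1.5-fold and the dotted line the median of all symbols, and the LXR targets have the lowest median, -0.81, while the receptors center on -0.25.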

How the data were processed

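Total RNA of 1 WT and 1 KO liver sample was made into libraries with a TruSeq kit and sequenced on an Illumina HiSeq instrument, as single end reads per the methods and paired end reads per the labels. The authors deposited FPKM values per locus from Cuffdiff, and the submitters' processing notes name TopHat2 2.0.0, Cufflinks 1.3.0 and mm9. Columns with the authors' fold change, test statistic, p-value and q-value were not used.

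Of 38016 loci, 21 marked HIDATA (failed estimates, Alb among them) and 2302 without a symbol were left out. Rows of a symbol were summed, and each symbol of the 850 joint loci was given the joint value. Log2 ratios used a pseudocount of 0.1 FPKM and a mean FPKM of at least 0.1, and calls used 1.5-fold, with no test. The FPKM step of 1 fragment in single-exon genes gave 51.5 fragments per FPKM and kilobase in WT and 56.2 in KO. With the longest GENCODE transcript on NCBIM37 this gave estimated fragments and exact Clopper-Pearson 95% intervals. These assume that every fragment came from that transcript, and do not cover PCR copies. Gene coordinates are those of that annotation, counted from 1. For 18 of the 34 receptors the listed locus differed from the annotated gene.

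All receptors were named, and of each list the 3 genes with the highest mean and the largest fold each way at a mean of at least 1. Members, lists and tests were chosen with earlier results of these data known. Not all genes of this rule are printed. Steps were tested on simulated data. Computations ran in Python 3.11.15 (scipy 1.17.1, pandas 2.3.3, numpy 2.4.6), and plots in matplotlib 3.10.9.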

Additional observations from a re-analysis of the deposited data

How the results depend on the processing

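Of 27 receptors above 0 in a library, 22 kept their direction under every alternative tried for them. The exceptions were Rora (3 scalings), Nr3c1 (equal upper quartiles), and Vdr, Hnf4g and Esrrb (centred on expressed genes). All 7 receptors past 1.5-fold kept theirs. The count of receptors lower in KO, 5, was 2 with a pseudocount of 1, 2 with equal upper quartiles, 2 when centred on expressed genes and 2 at a 2-fold threshold, and in each case these were Esr1 and Nr3c2. The share of all symbols lower in KO fell too, from 22.9% to 12%, 14.3%, 14.2% and 9.94% in these settings. The calls of Rarb, Nr2c2 and Nr2f1 thus rest on the scale and threshold. The count of 7 with a pseudocount of 0.01 added Esrrg and Nr4a2, and there 25.7% of all symbols were lower. The count of higher receptors was 2 or 3, with Nr4a1 and Nr1i3 in each case, while 2.08% to 9.23% of all symbols were higher. The receptor median ran from -0.257 to 0.019. The median of all symbols, -0.251, was 0.010 with equal upper quartiles and -0.014 when centred. Estimated fragments limit Nr2f1, Nr4a2 and receptors under 0.1 FPKM. No paired analysis was possible because there is 1 library per genotype, and for the same reason no library could be left out.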
